A study of Homo sapiens with 8 samples.

Results

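The Notch pathway was followed in Rh41 cells through 10 genes: the receptors NOTCH1, NOTCH2 and NOTCH3, the ligands JAG1, JAG2 and DLL1, the DNA-binding protein RBPJ, and the transcription factors HES1, HES6 and HEY1. They were taken by symbol from a deposited table of 60234 genes, and all 10 were found. JAG1 was listed under 2 identifiers, and the one with the higher mean was kept. Rh41 is an established human cell line from alveolar rhabdomyosarcoma, a childhood cancer whose cells express muscle-lineage genes, and it carries the PAX3-FOXO1 fusion. There were 4 control libraries, for which the labels give no agent, and 4 siG9a libraries, in which G9a, the histone H3 lysine 9 methyltransferase encoded by EHMT2, was knocked down. The labels of the treated samples read siG9a while the series title reads shG9a, and no dose or time after knockdown is given, so the agent and the duration are not settled here. All libraries came from the same line. The series calls the replicates biological without naming separate cultures, so p-values measure the spread between these libraries, which may be partly technical.

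Notch signalling passes between neighbouring cells. A Jagged or Delta ligand on one cell pulls on a Notch receptor on the next, an ADAM protease and then the gamma-secretase complex cut the receptor, and the freed intracellular domain enters the nucleus. There it joins RBPJ and a Mastermind coactivator, and RBPJ, which holds corepressors when no Notch domain is present, then switches on genes of the HES and HEY families. In skeletal muscle the pathway is known for keeping progenitor cells from differentiating, and HES6 differs from its relatives in that it opposes HES1 and is known to promote myogenic differentiation.

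The RBPJ binding letters are shown here because RBPJ was the one member whose RNA passed the test with libraries compared within replicate numbers. Windows of 250 bases before each start in RefSeq (GRCh38.p14) were found for 8 of the 10 members, and none was matched for DLL1 and HEY1. Capitals mark TGGGAA, the core of the RBPJ motif, read on either strand (TTCCCA on the other). RBPJ itself is shown for the one of its starts that holds a match, with HES1 and HEYL as HES and HEY family genes with matches and HES6 as a HES gene without one. These are examples. HES4, HES5 and HEY2 also held a match, and HES2, HES7 and NRARP did not.
RBPJ, chr4:26319496-26319745, + strand: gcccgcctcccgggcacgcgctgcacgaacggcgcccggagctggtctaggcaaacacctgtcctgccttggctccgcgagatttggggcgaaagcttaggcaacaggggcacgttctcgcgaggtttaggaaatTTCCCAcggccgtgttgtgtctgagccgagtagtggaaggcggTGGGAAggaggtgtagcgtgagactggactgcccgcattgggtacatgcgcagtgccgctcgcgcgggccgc
HES1, chr3:194135898-194136147, + strand: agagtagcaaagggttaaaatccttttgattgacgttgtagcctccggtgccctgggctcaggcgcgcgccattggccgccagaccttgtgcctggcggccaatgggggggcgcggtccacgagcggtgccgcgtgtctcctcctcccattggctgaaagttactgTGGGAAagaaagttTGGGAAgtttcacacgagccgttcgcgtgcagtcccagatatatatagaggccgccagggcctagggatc
HEYL, chr1:39639644-39639893, − strand: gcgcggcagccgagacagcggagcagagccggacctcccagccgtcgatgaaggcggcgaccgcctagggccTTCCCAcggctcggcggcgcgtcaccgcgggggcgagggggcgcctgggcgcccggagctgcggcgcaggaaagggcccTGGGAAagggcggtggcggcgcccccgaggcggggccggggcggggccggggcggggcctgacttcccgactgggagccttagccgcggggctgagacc
HES6, chr2:238240039-238240288, − strand: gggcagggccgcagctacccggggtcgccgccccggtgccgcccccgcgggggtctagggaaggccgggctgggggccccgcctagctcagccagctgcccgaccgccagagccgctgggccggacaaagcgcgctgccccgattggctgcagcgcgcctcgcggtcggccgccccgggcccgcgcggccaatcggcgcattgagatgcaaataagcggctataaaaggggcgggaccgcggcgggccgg
HES1 held 2 matches in the same orientation, beginning at -84 and -70 from the start. RBPJ held a pair of matches in opposite orientation, beginning at -115 and -72, and HEYL likewise at -178 and -99. Of the 8 members with a window, 2 (RBPJ and HES1) held TGGGAA before at least 1 start, as did 14 of 50 other pathway genes, beside 24.6% of all 27305 genes with a window. TGGGAA was present in 20.8% of all 35116 windows and the longer GTGGGAA, which contains it, in 5.43%. The E-box letters CAGCTG, whose last 2 letters can also begin TGGGAA, were found in HES6 at -158, before another start of RBPJ at -105 and in 14.0% of all windows. These matches describe letters in a short window, and no binding was measured.

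Libraries held 1458825 to 1938665 reads assigned to genes, recovered from the deposited values scaled to library size (CPM), so 3 reads, the floor used here, equal 1.55 to 2.06 CPM. The reads come from transcript ends and are not scaled by length. In the deposited table EHMT2 was listed under 7 identifiers, and the one with the highest mean was kept. EHMT2, whose exons overlap those of EHMT2-AS1, was at 34.0%, 51.6%, 37.9% and 66.3% of control in siG9a 1 to 4, each against its same-numbered control (log2 change −1.10 ± 0.31, SE), with a limma adjusted p of 0.191, and 0.000472 with the replicate number as a block, the fit called paired below. Both replicate 3 libraries stood apart from the others. The 6 muscle and rhabdomyosarcoma markers (MYOD1, MYOG, DES, CHRNA1, CDH15, FGFR4) were all detected in every library, and summed to 266 and 222 CPM in control 3 and siG9a 3 against 875 to 1742 CPM in the other 6. The 6 neural and epithelial markers, nearly all of it NEFM and NEFL, summed to 9611 and 8935 CPM there against 1830 to 2951 CPM in numbers 2 and 4. Both replicate 1 libraries stood apart on this list too, at 202 and 223 CPM, and they were also the lowest for HEY1 and NRARP and the highest for HES1 and DLL1 in their groups. Of the endothelial markers, CDH5 and KDR were at 0 in every library and the list summed to at most 2.08 CPM, and the 4 fibroblast markers summed to at most 8.92 CPM. Values without the replicate 3 libraries are given for the members. For the other named genes whose paired call changed without them, values are given or the loss of the call is stated.

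The question was whether Notch genes changed when G9a was knocked down. RBPJ was lower in siG9a with every replicate number, and no ligand, receptor or HES or HEY member passed the test in either fit. Without a block, limma called 0 of the 10 members and 0 of all 15092 genes tested (0.0%), with 1 member and 1880 genes at an unadjusted p under 0.05. On recovered reads without a block, edgeR called 0 genes and DESeq2 291, among the members RBPJ alone (DESeq2 adjusted p 0.0494). In the paired fit it called 1 of the 10 members, RBPJ, where 11.4% of all genes tested were called and 6.52% were called lower. All 10 members passed the filter of a mean of at least 1 CPM. Of the 10, 5 had a positive and 5 a negative log2 change, and their median was 0.06 beside 0.01 over all genes tested. None of the 10 had groups that did not overlap, where 7.32% of all genes tested had (3.88% higher and 3.45% lower in siG9a). RBPJ, NOTCH3 and HES6 were lower in 4 of 4 replicate numbers, a pattern shown by 15.3% of all genes tested, and no member was higher in 4 of 4, as 14.9% of all genes were.

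**Figure D1:**
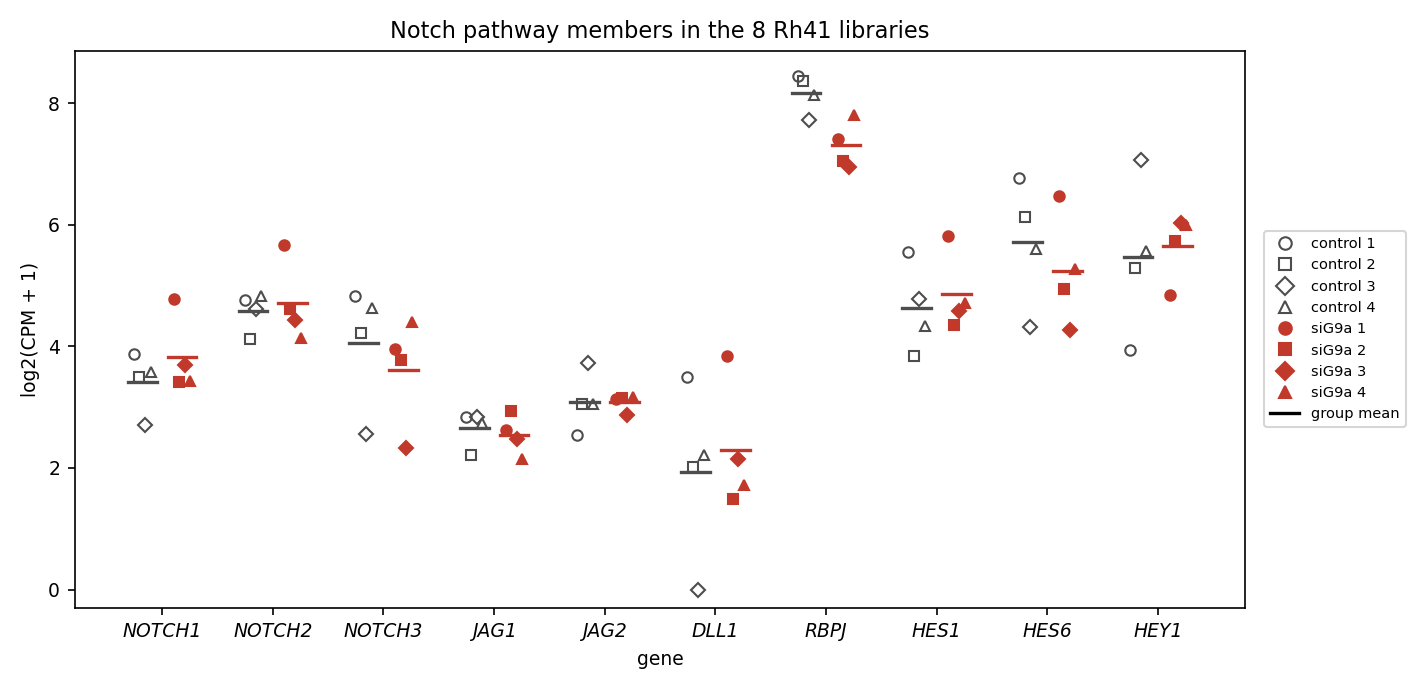
Level of each member in each library as log2(CPM + 1), control in open grey and siG9a in filled red symbols, with the symbol shape giving the replicate number and the bar the group mean. The siG9a values of RBPJ lie below control except that siG9a 4 is above control 3, while NOTCH3 and HES6 are lowest in the replicate 3 libraries of both groups and HEY1 is highest in control 3.

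RBPJ (ENSG00000168214) is the factor through which the Notch receptors act on DNA. It measured 346, 328, 210.3 and 278 CPM in control 1 to 4 and 169.7, 131.9, 123.3 and 222 CPM in siG9a 1 to 4. The groups overlapped at one point, siG9a 4 being above control 3. Control averaged 291 ± 60.8 CPM on 1923 reads, and siG9a 161.7 ± 44.9 CPM on 1150 reads (SD, n = 4 each). Within replicate numbers 1 to 4, the siG9a library was at 49.0%, 40.2%, 58.6% and 79.7% of control. The largest difference fell in number 2 and the smallest in number 4. For EHMT2 the largest fell in number 1 and the smallest in number 4, so the order of the numbers was not the same. The log2 change of RBPJ was −0.86 ± 0.24 (SE) with a limma adjusted p of 0.191 without the block. In the paired fit the SE was 0.16 and the limma adjusted p was 0.000701. An exact permutation test of the 8 values, two-sided, gave p = 0.0571, where 4 against 4 can reach 0.0286. In bulk RNA, fewer cells of a type and less RNA per cell cannot be told apart.

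The RBPJ call did not rest on the replicate 3 libraries. Without them control averaged 317.5 ± 35.1 CPM and siG9a 174.5 ± 45.2 CPM (SD, n = 3 each). Control 3 had been the only control value below a siG9a value, so leaving it out removed the overlap by itself. The share of all genes without overlap was not computed for 3 against 3. The log2 change was then −0.89, with a limma adjusted p of 0.0444 without the block and 0.00833 with it, where 2.74% and 7.14% of all genes tested were called, 1.95% and 4.59% lower and 0.782% and 2.56% higher. Without control 3 alone the unpaired limma adjusted p was 0.0471. The paired call held in each of the 4 fits that left out a replicate number, with limma adjusted p-values from 0.000264 to 0.0286 and log2 changes from −1.03 to −0.70. On recovered reads with the block, the adjusted p was 0.000647 by edgeR and 0.000479 by DESeq2. The summed muscle markers measured 1742, 1576, 266 and 1729 CPM in control 1 to 4 and 1178, 875, 222 and 1273 CPM in siG9a 1 to 4. They were thus lower in siG9a with every replicate number. Of the 6 markers, all had a negative log2 change, that of MYOD1 only −0.026. DES, CHRNA1, CDH15 and FGFR4 were called lower in the paired fit. The part of the muscle markers in the difference in RBPJ was not tested.

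**Figure D2:**
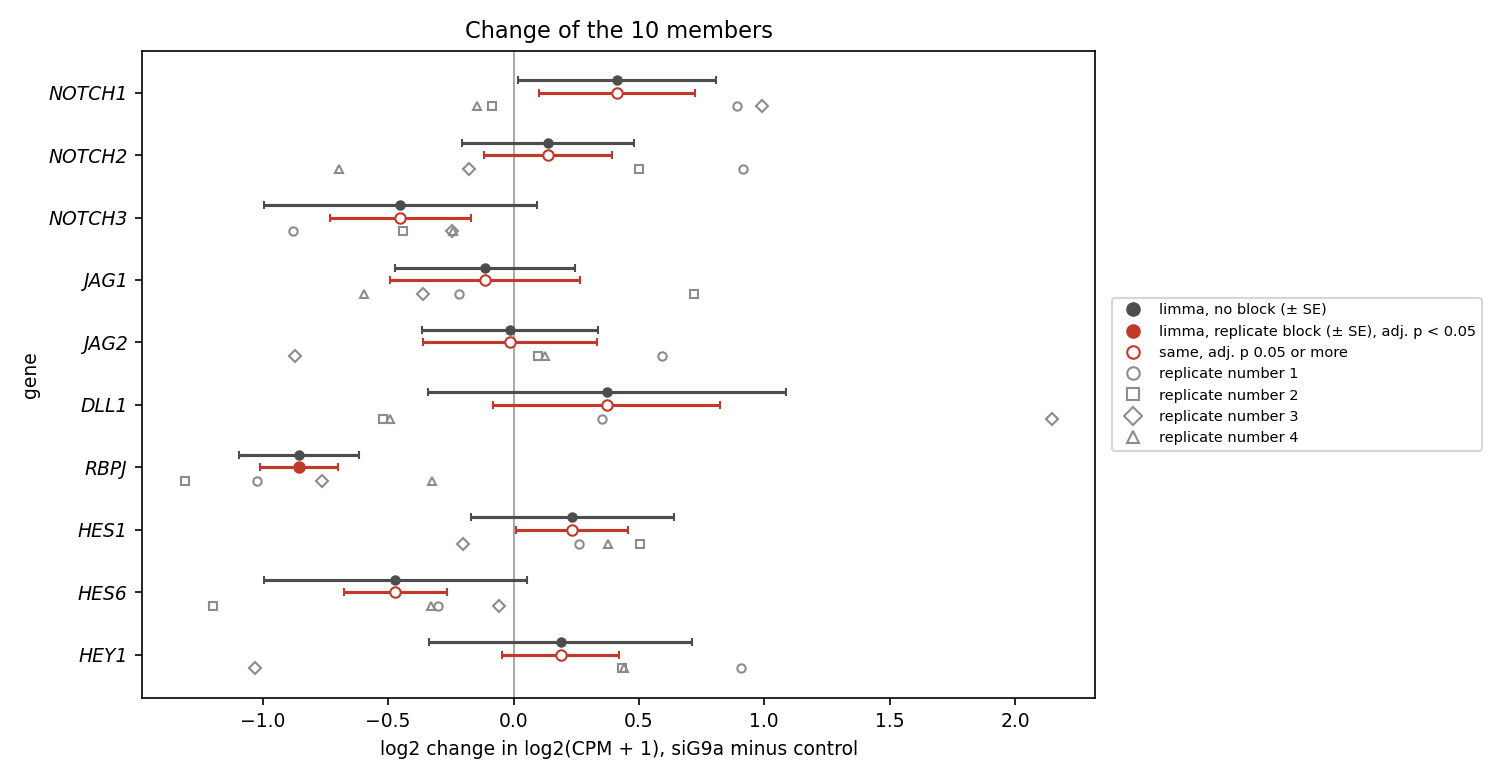
Log2 change of each member on the log2(CPM + 1) scale, siG9a minus control, by limma without the block (grey, ± SE) and with it (red, ± SE, filled where the adjusted p is under 0.05), with open grey symbols for the difference within each replicate number. Only RBPJ is filled, at −0.86, and the 4 differences of DLL1, HEY1 and NOTCH2 fall on both sides of 0.

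None of the receptors passed the test. NOTCH1, whose cleaved domain is the most studied activator of the pathway, measured 13.7, 10.3, 5.53 and 10.9 CPM in control and 26.3, 9.68, 12.0 and 9.75 CPM in siG9a. The library siG9a 1 was high and the other 3 siG9a values lay among the control values. The change on the log2 scale was 0.41 ± 0.31 (SE) with a paired limma adjusted p of 0.437. It was 0.22 without the replicate 3 libraries (paired limma adjusted p 0.770) and 0.099 in the unpaired fit without siG9a 1. NOTCH2 measured 26.1, 16.4, 23.4 and 27.5 CPM in control and 50.03, 23.6, 20.6 and 16.6 CPM in siG9a, again with siG9a 1 highest. Its log2 change was 0.14 ± 0.26 (SE) with a paired limma adjusted p of 0.795, and 0.24 without the replicate 3 libraries. In the unpaired fit without siG9a 1 it turned to −0.18. NOTCH2 has close copies elsewhere in the genome, and whether reads from transcript ends are split between them was not tested.

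NOTCH3, known for its role in smooth muscle and in muscle stem cell quiescence, was lower in siG9a with each replicate number. It measured 27.4, 17.6, 4.92 and 23.9 CPM in control and 14.4, 12.7, 4.00 and 20.1 CPM in siG9a, on 7 to 46 reads in a library. The replicate 3 libraries were the lowest of both groups, and the groups overlapped. Its siG9a values were 52.7%, 72.1%, 81.3% and 84.0% of control. The log2 change was −0.45 ± 0.28 (SE) in the paired fit, with a limma adjusted p of 0.333, and −0.52 without the replicate 3 libraries (adjusted p 0.319, paired). In the unpaired fit single libraries moved it widely, to −0.022 without siG9a 3 and −0.95 without control 3.

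The ligands rested on few reads. JAG1 ran from 3.65 to 6.17 CPM in control and from 3.44 to 6.66 CPM in siG9a, on 6 to 11 reads in a library, with a log2 change of −0.11 ± 0.38 (SE) and a paired limma adjusted p of 0.891 (−0.032 without the replicate 3 libraries). JAG2 measured 4.80, 7.29, 12.3 and 7.27 CPM in control and lay between 6.28 and 8.03 CPM in siG9a, with a log2 change of −0.013 ± 0.35 (SE) and a paired limma adjusted p of 0.987. Its direction turned without the replicate 3 libraries, to 0.27. DLL1, a Delta ligand of muscle progenitors, measured 10.3, 3.04, 0 and 3.63 CPM in control and 13.4, 1.82, 3.43 and 2.29 CPM in siG9a. Both replicate 1 libraries were high, and the 0 reads of control 3 allow up to 1.84 CPM. The DLL1 log2 change of 0.37 ± 0.45 (SE, paired) turned to −0.22 without the replicate 3 libraries. With so few reads a change of the size of that in RBPJ could have been missed in these ligands. JAG1 and JAG2 share exon sequence with other annotated genes, and strand use in the counting is not given in the sources used here.

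Among the transcription factors, HES1, the classic direct target with the pair of matches shown above, did not pass the test. It measured 45.9, 13.4, 26.4 and 19.2 CPM in control and 55.2, 19.4, 22.8 and 25.2 CPM in siG9a. The replicate 1 libraries were the highest of both groups. In the paired fit HES1 had a log2 change of 0.23 ± 0.22 (SE, limma adjusted p 0.562), higher in 3 of 4 replicate numbers. Without the replicate 3 libraries it was 0.38 (paired limma adjusted p 0.426). In the unpaired fit without siG9a 1 it turned to −0.083, and in the paired fit without number 1 it stayed at 0.23.

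HES6, whose product supports myogenic differentiation, was not called either. It measured 108.3, 69.3, 19.1 and 47.8 CPM in control and 87.7, 29.7, 18.3 and 37.9 CPM in siG9a. Values were lower with each replicate number, at 81.0%, 42.8%, 95.9% and 79.2% of control, and the groups overlapped widely. In the paired fit HES6 had a log2 change of −0.47 ± 0.20 (SE), with an unadjusted p of 0.0299 and a limma adjusted p of 0.144. Without the replicate 3 libraries it was −0.61, with a paired limma adjusted p of 0.115. HES6 was lowest in control 3 and siG9a 3, where MYOD1, the master regulator of the muscle lineage, was also lowest, at 95.3 and 127.9 CPM against 608 to 864 CPM in the other libraries.

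HEY1, a Hairy-related repressor of myogenic factors, differed in its layout over libraries. It measured 14.4, 38.3, 132.8 and 46.2 CPM in control and 27.9, 52.05, 64.5 and 63.1 CPM in siG9a. Control 3 was far above the other controls, siG9a 3 and siG9a 4 were nearly equal, and the replicate 1 library was lowest in both groups. The siG9a value was above control in numbers 1, 2 and 4, at 193.4%, 136.0% and 136.5%, and below it in number 3, at 48.6%. The paired fit gave HEY1 a log2 change of 0.19 ± 0.23 (SE, limma adjusted p 0.676). Without the replicate 3 libraries it was 0.59, with a paired limma adjusted p of 0.144. The direction of HEY1 over all 8 libraries depended on the tool, since unpaired edgeR gave −0.16 and unpaired DESeq2 −0.17.

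**Figure D3:**
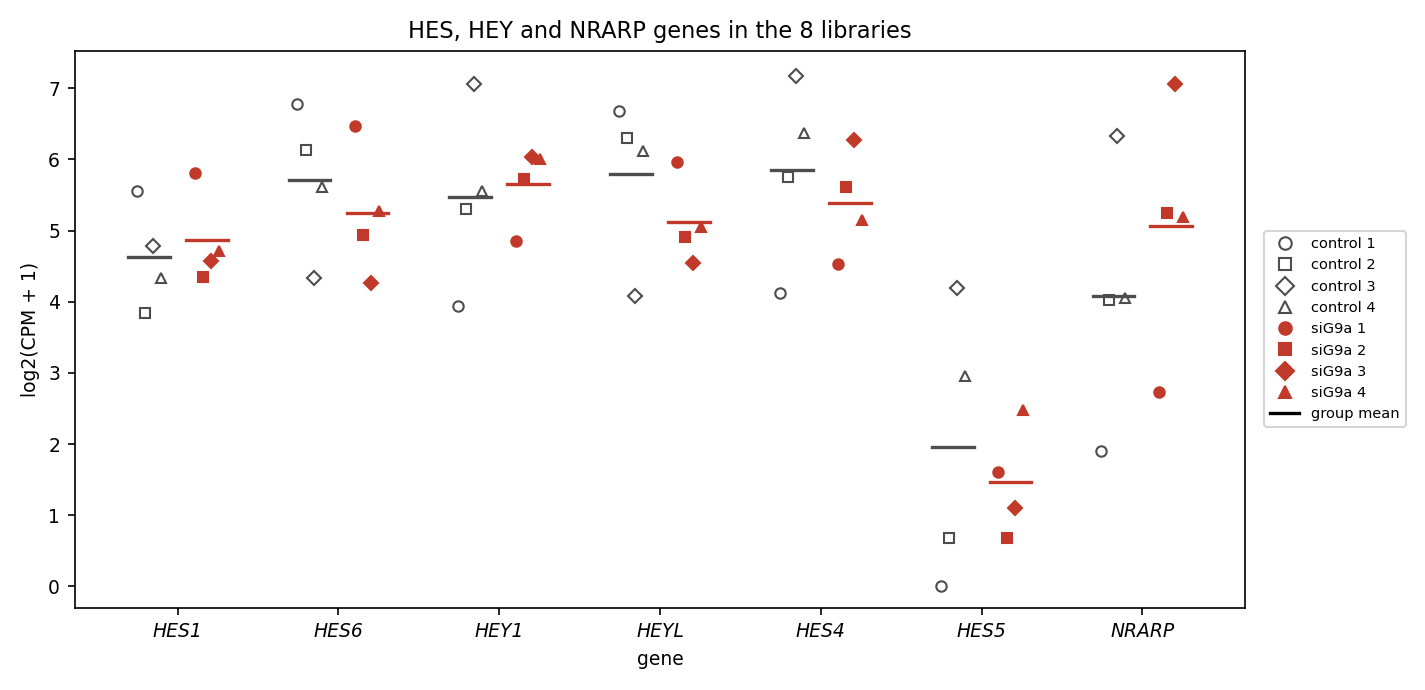
Level of 7 HES, HEY and NRARP genes in each library as log2(CPM + 1), control in open grey and siG9a in filled red symbols, with the shape giving the replicate number and the bar the group mean. NRARP is higher in siG9a within each replicate number although its level differs widely between numbers, and control 3 is low for HES6 and HEYL and high for HEY1, HES4, HES5 and NRARP.

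The rest of the pathway was read from 60 genes listed by textbook role, of which 53 passed the filter. DLL4, DTX1 and RBPJL were at 0 in every library, and NOTCH4, DLK1, MFNG and KAT2B lay between 0 and 1.72 CPM. Unpaired limma called 0 of the 53, and unpaired edgeR and DESeq2 also called 0. In unpaired limma 10 of the 53 had an unadjusted p under 0.05, as had 1880 of all 15092 genes tested. The paired fit called 10 of 53, 6 higher and 4 lower, where 4.86% and 6.52% of all genes tested were called in those directions. Groups did not overlap for 3 genes higher and 2 lower in siG9a, beside 3.88% and 3.45% of all genes tested. The median log2 change of the 53 was 0.09. By role, the calls were 3 of 9 cleavage genes (all higher), 3 of 12 corepressor genes (1 higher, 2 lower) and 1 of 7 coactivator genes (higher). They were 1 of 5 glycosylation genes (lower), 1 of 7 receptor turnover genes (lower) and 1 of 7 HES, HEY and NRARP targets (higher). Of these 7 targets, 1 had a positive and 6 a negative log2 change. The median of the 7 was −0.35, and −0.075 without the replicate 3 libraries. HES2, HES5, HES7 and HEY2 among them had means of only 1.20 to 4.12 CPM. None of the 4 genes of ligand endocytosis and neither tested ligand was called.

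The falls included a pair of genes that act on the receptor. DTX4, an E3 ligase of the Deltex family that acts in Notch endocytosis, measured 98.7, 105.1, 20.3 and 71.1 CPM in control and 35.1, 24.8, 12.6 and 36.1 CPM in siG9a. The control 3 value was the only control value within the siG9a range. DTX4 had a log2 change of −1.28 ± 0.22 (SE) with a paired limma adjusted p of 0.000357 and 0.315 unpaired, and without the replicate 3 libraries 0.00484 unpaired. LFNG, a Fringe enzyme that adds sugar to Notch and shifts its response between Delta and Jagged ligands, measured 133.7, 156.8, 22.1 and 159.4 CPM in control and 52.6, 54.5, 19.98 and 85.5 CPM in siG9a. Both replicate 3 libraries were low and near each other, at 90.2% of control in number 3 against 34.7% to 53.6% in the others. LFNG had a log2 change of −0.97 ± 0.20 (SE) with a paired limma adjusted p of 0.00193 and 0.538 unpaired. Without the replicate 3 libraries it was −1.24, with adjusted p-values of 0.000651 paired and 0.00964 unpaired, and the paired call was lost without number 2 (0.0593). DTX4 shares exon sequence with a gene on the other strand.

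The other 2 falls were among the corepressors. CTBP2, which is bound by repressors that act with RBPJ, measured 215, 248, 205 and 407 CPM in control and 169.2, 144.1, 135.9 and 176.1 CPM in siG9a. Every control value was above every siG9a value. CTBP2 had a log2 change of −0.73 ± 0.15 (SE), with a paired limma adjusted p of 0.00246 and 0.244 unpaired. SAP30, a subunit of the SIN3 deacetylase complex, measured 16.5, 14.6, 42.4 and 18.7 CPM in control and 3.61, 9.08, 20.6 and 16.1 CPM in siG9a. SAP30 had a log2 change of −0.94 ± 0.29 (SE) with a paired limma adjusted p of 0.0373 and 0.461 unpaired. That call was lost without number 1, 2 or 3 (adjusted p 0.223, 0.0880 and 0.151), and DESeq2 with the block gave 0.116. CTBP2 shares exon sequence with genes on the other strand.

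NRARP, a direct Notch target whose product feeds back on the Notch complex, rose in the paired fit. It measured 2.74, 15.2, 79.3 and 15.6 CPM in control and 5.67, 36.9, 132.5 and 35.6 CPM in siG9a. The values spread more between replicate numbers than between groups, and within each number siG9a was higher, at 206.9%, 243%, 167.0% and 228% of control. NRARP had a log2 change of 0.98 ± 0.23 (SE) with a paired limma adjusted p of 0.00615 and 0.713 unpaired. The paired call was narrowly lost without number 3 (0.0525) and without number 2 (0.0719), with log2 changes of 1.07 and 0.90. HEYL, a HES and HEY family gene with the RBPJ letters shown above, went the other way. It measured 101.5, 77.8, 16.0 and 68.5 CPM in control and 61.4, 29.1, 22.3 and 32.1 CPM in siG9a, lower in numbers 1, 2 and 4 and higher in number 3. Its paired limma adjusted p was 0.0582 with all libraries and 0.00556 without the replicate 3 libraries, where the log2 change was −1.06. Blocked edgeR on recovered reads of all libraries called HEYL (adjusted p 0.0176).

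The rises among the cleavage genes were NCSTN, APH1A and APH1B, which encode subunits of gamma-secretase. APH1A measured 415, 413, 449.5 and 303 CPM in control and 464, 509.6, 575 and 612 CPM in siG9a, without overlap. APH1A had a log2 change of 0.46 ± 0.15 (SE) with a paired limma adjusted p of 0.0457 and 0.365 unpaired. APH1B rose from 8.50 ± 3.85 to 17.9 ± 8.63 CPM (SD, n = 4 each), higher in 4 of 4 numbers, with a paired limma adjusted p of 0.0405 and 0.368 unpaired. NCSTN measured 6.85, 1.22, 8.61 and 1.04 CPM in control, 2 of these on 2 reads each, and 25.8, 12.1, 7.42 and 9.18 CPM in siG9a. NCSTN had a log2 change of 1.62 ± 0.41 (SE) with a paired limma adjusted p of 0.0106 and 0.286 unpaired, and number 3 went the other way. APH1A was called in the fit without number 1 only, NCSTN in the fit without number 3 only, and APH1B in none of the 4 fits that left out a number. DESeq2 with the block gave 0.104 for APH1A, 0.120 for APH1B and 0.0351 for NCSTN. The exons of NCSTN overlap those of COPA, and those of APH1A overlap C1orf54, both on the other strand. PSEN2, a catalytic subunit of the same complex, averaged 65.6 ± 25.1 CPM and 39.7 ± 7.47 CPM in control and siG9a (SD, n = 4 each). It passed the paired test without the replicate 3 libraries (log2 change −0.99, limma adjusted p 0.00875) and not with all libraries (0.0750), where blocked edgeR on recovered reads did call it (adjusted p 0.0457).

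In the nuclear complex, the rises were KAT2A, a histone acetyltransferase that acts with Notch coactivators, and KDM5A, a histone H3 lysine 4 demethylase known to bind RBPJ. KAT2A measured 40.4, 46.8, 49.2 and 46.2 CPM in control and 99.6, 72.02, 77.1 and 53.9 CPM in siG9a, without overlap. Its log2 change was 0.69 ± 0.19 (SE) with a paired limma adjusted p of 0.0180 and 0.258 unpaired. KDM5A rose from 241 ± 42.0 to 324 ± 35.4 CPM (SD, n = 4 each), without overlap, with a paired limma adjusted p of 0.0427 and 0.385 unpaired. Each of these 2 calls held without number 4 only, of the 4 fits that left out a number. ITCH, an E3 ligase that targets Notch, had groups that did not overlap, at 13.5 to 15.2 CPM in control and 9.08 to 13.1 CPM in siG9a. It was not called, with a log2 change of −0.35 ± 0.28 (SE) and a paired limma adjusted p of 0.475. KAT2A and KDM5A overlap exons of other annotated genes.

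**Figure D4:**
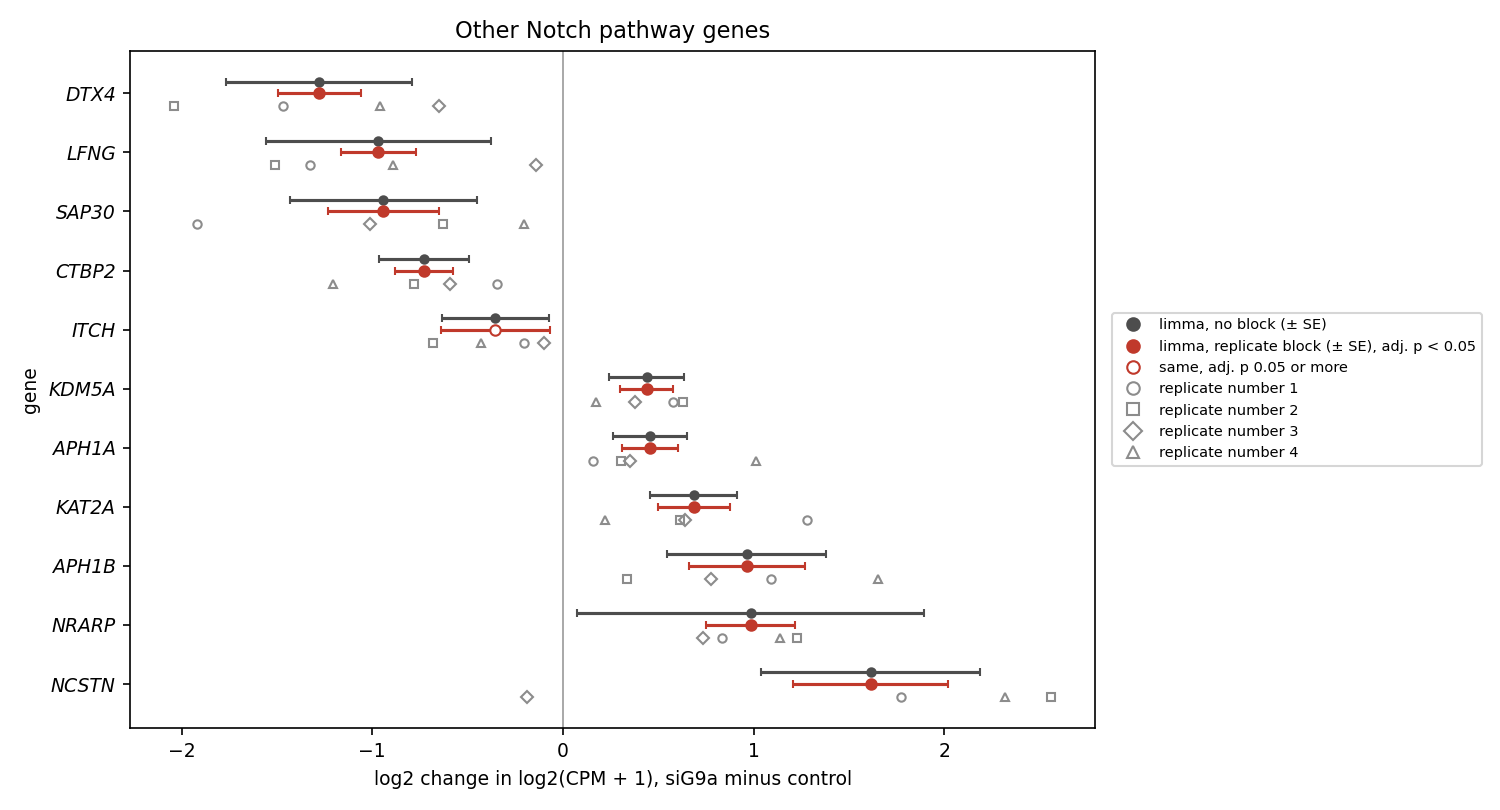
Log2 change of 11 other Notch pathway genes on the log2(CPM + 1) scale, siG9a minus control, by limma without the block (grey, ± SE) and with it (red, ± SE, filled where the adjusted p is under 0.05), with open grey symbols for the difference within each replicate number. DTX4, LFNG, SAP30 and CTBP2 lie to the left and 6 filled genes to the right, ITCH is open, and NCSTN has one replicate number, 3, on the left of 0.

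Of the 10 paired calls among these other genes, 2 (DTX4 and CTBP2) held in all 4 fits that left out a replicate number, 1 in 3 fits, 1 in 2 fits, 5 in 1 fit and 1 in 0 fits. Without the replicate 3 libraries the paired fit called 7 of the 53, where 7.14% of all genes tested were called. Of these 7, 4 (DTX4, LFNG, CTBP2 and NCSTN) were among the 10. The other 3 were HEYL, PSEN2 and TLE1, named after their values were seen. TLE1, a Groucho-type corepressor that HES proteins recruit, averaged 150.6 ± 29.7 CPM and 204.2 ± 24.9 CPM in control and siG9a (SD, n = 4 each), with a limma adjusted p of 0.0436 in that fit and 0.0701 in the paired fit of all libraries. On recovered reads with the block, edgeR called 8 of the 10 (not KDM5A and APH1A) and DESeq2 called 6.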

How the data were processed

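QuantSeq 3′ mRNA libraries from total RNA of Rh41 cells were sequenced single-end, per the labels' protocols. The submitters' processing notes name FastQC 0.11.8, Trim Galore, STAR 2.5.0a, HTSeq 0.8.0 and edgeR 3.28, and the builds GRCh38 and hg19, with no role given. Strand use, annotation and filters are not given in the sources used here. The authors deposited CPM per gene and library to 2 decimals, per the file headers. CPM divides by the library total, so values of different genes in a library are not independent. Whole reads were recovered for 100% of non-zero values, within 0.0051 CPM.

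The main test was limma 3.58.1 (R 4.3.3) on log2(CPM + 1), two-sided, eBayes with trend, on the 15092 genes whose mean reached 1 CPM, adjusted by Benjamini-Hochberg over all of them at 0.05. The pseudocount of 1 understates the change of low genes. Values printed as SE beside a paired p come from the paired fit. That fit adds the replicate number from the sample titles as a block; the labels do not say what the number marks. Deviations from the group means correlated across genes at 0.50, 0.1038, 0.67 and 0.13 for same-numbered libraries 1 to 4, each over the 0.1 taken as pairing, and at −0.52 to 0.144 for the others. Control 2 with siG9a 4 (0.144) was above the matched values of numbers 2 and 4, so for these numbers the pairing is weak. No within-group pair of libraries agreed within sampling noise (chi-square over its degrees of freedom 5.9 to 28.7), so none was merged as a library deposited more than once. This does not show that replicates are independent cultures.

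Alternatives were a pseudocount of 0.1 or 5, dropping the filter or raising it to 5 CPM, scaling by median ratios, leaving out libraries or replicate numbers, and edgeR 4.0.16 and DESeq2 1.42.0 on recovered reads, with and without the block. Scripts were tested on simulated data. Members and lists were chosen with earlier results of these data known. Named were all members, EHMT2, and other pathway genes called in either fit or without overlap between groups. HEYL, PSEN2 and TLE1 did not meet this rule and were added after their values were seen. GENCODE release 29 served only to list overlapping exons, and promoter windows are RefSeq's. PECAM1, also listed as an endothelial marker, was not matched by symbol, so the endothelial sum leaves it out. Intervals and floors cover counting error only.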

Additional observations from a re-analysis of the deposited data

Results flagged for a closer look

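In 44 groups of 4 libraries, for 22 named genes, 6 had a highest or lowest library set apart from the other 3 by more than Dixon's 95% critical value. Chance would give about 2.2 if the groups were independent and their values normally distributed. The genes share the same libraries, so the groups are not independent and the 6 cannot be weighed against 2.2. Library siG9a 1 was high for 3 members. NOTCH1 was at 26.3 CPM there where the other siG9a libraries lay between 9.68 and 12.0 CPM, DLL1 at 13.4 CPM (others 1.82 to 3.43) and HES1 at 55.2 CPM (others 19.4 to 25.2). JAG2 was low in siG9a 3, at 6.28 CPM (others 7.74 to 8.03), on 11 reads. In control 3, NRARP was at 79.3 CPM (others 2.74 to 15.6) and SAP30 at 42.4 CPM (others 14.6 to 18.7).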

How the results depend on the processing

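The unpaired count of 0 genes called became 18 without a filter, 413 without both replicate 3 libraries and 291 with DESeq2, and ran from 0 to 300 when single libraries were left out (300 without control 3, 2 without siG9a 4). With the replicate block it was 1717, and 951, 668, 1078 and 1393 without replicate numbers 1, 2, 3 and 4. With the block it was 1709 by edgeR and 969 by DESeq2. Members called went from 0 to 1, RBPJ each time, without the replicate 3 libraries, with the block, with the block and any one number left out, and with DESeq2 or blocked edgeR, and ran from 0 to 1 with single libraries left out. Other pathway genes called went from 0 to 4 without the replicate 3 libraries and 10 with the block, with 6, 2, 7 and 9 when numbers 1 to 4 were left out, 10 by blocked edgeR and 6 by blocked DESeq2. They ran from 0 to 2 with single libraries left out. The other alternatives gave 0 for all 3 counts.

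Of 502 values of the 22 single genes under alternatives, 419 kept direction and side of the threshold, 64 newly passed it and 19 reversed, all 19 among NOTCH2, JAG1, JAG2, DLL1, HES1 and HEY1. Log2 changes with single libraries left out ran from −0.18 (without siG9a 1) to 0.33 for NOTCH2, −0.26 to 0.018 (without siG9a 4) for JAG1, −0.20 to 0.20 (without control 3) for JAG2, −0.27 (without control 3) to 0.89 for DLL1, −0.083 (without siG9a 1) to 0.54 for HES1 and −0.32 (without control 1) to 0.72 for HEY1. Without reversing, they ran from 0.099 (without siG9a 1) to 0.57 for NOTCH1, with 0.18 without control 3. For NOTCH3 they ran from −0.95 (without control 3) to −0.022 (without siG9a 3), for HES6 from −0.93 (without control 3) to −0.12 (without control 1), for LFNG from −1.64 (without control 3) to −0.57 (without siG9a 3) and for NRARP from 0.26 (without control 1) to 1.76 (without siG9a 1). SAP30 was −0.50 without siG9a 1 and −0.61 without control 3. Without both replicate 3 libraries JAG2 reversed to 0.27 and DLL1 to −0.22, unpaired and paired. With the block, NOTCH2 reversed to −0.12 and HEY1 to −0.052 without number 1, and JAG1 to 0.047 without number 4. HEY1 reversed to −0.16 by edgeR and −0.17 by DESeq2, both without the block. None of these reversed values passed the threshold, and the cause was not tested. With 0 to 26 reads in a library, DLL1, JAG1 and JAG2 are limited by depth.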
